A study of Mus musculus with 14 samples.

Results

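*Sox10*, *Foxd3*, *Neurog1*, *Neurog2*, *Isl1*, *Pou4f1*, *Mitf* and *Ret* are 8 genes that mark or drive the neuronal, glial and pigment cell fates of the neural crest, out of 27514 genes with a captured start site. Their promoter contacts were followed by promoter capture Hi-C (PCHi-C), in which HindIII fragments that hold annotated start sites (baits) are pulled out of a Hi-C library and their ligation partners are read. A contact was taken for a gene when the bait on either side of a listed pair held a GENCODE start site of that gene, and each of the 8 genes had exactly 1 such bait. Together these baits had 435 listed pairs in any library, of which 287 lay on the same chromosome, and no pair joined a bait of one of these genes to a bait of another. For *Mitf* only the most upstream promoter was a bait, so the contacts of its 3 fragments with downstream start sites, including the one used in melanocytes, were not read from their own side. The *Foxd3* bait is 18144 bp long and also holds start sites of the noncoding genes Gm12688 and Gm23366.

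Cranial neural crest cells (CNCCs) were sorted from 7 conditions with 2 libraries each. Wild-type cells came from *Wnt1::Cre*;*ROSA-RFP* embryos and were sorted for RFP. Tissue was micro-dissected at E10.5 from the second arch (PA2), from the mandibular (Md) and maxillary (Mx) parts of the first arch and from the frontonasal process (FNP). The developing pinna, which arises from PA2, was dissected at later stages (E12.5, E14.5). This Cre line marks the whole crest lineage, so the sort takes neuronal, glial and mesenchymal crest descendants alike. The *Hoxa2* knockout PA2 cells came from E10.5 *Hoxa2* EGFP/EGFP embryos and were sorted for GFP, so genotype and reporter differ together in that comparison. E14.5 tissue was dissociated with papain and the earlier stages with trypsin, so stage and enzyme cannot be told apart. FNP, Mx and Md express no *Hox* gene and are called *Hox*-negative, and wild-type PA2 and pinna are called *Hoxa2*-expressing. The methods call the 2 libraries of a condition biologically independent, without saying whether they came from separate litters, and the p-values measure the spread between these libraries. The contact lists hold no expression values, so neuronal, glial or pigment cells could not be counted in these sorts.

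Cranial crest cells that settle in the facial prominences mostly form cartilage, bone and connective tissue, while others form the neurons and glia of the cranial ganglia, Schwann cells and melanocytes. SOX10 and FOXD3 act in early migrating crest and are kept in glial precursors, neurogenins start the sensory neuron programme in the cranial ganglia, ISL1 and POU4F1 are carried on by differentiating sensory neurons, RET is the receptor of enteric and autonomic precursors, and MITF directs melanocytes. *Isl1* also has roles in arch or oral tissues outside the nervous system. In these sorted populations, a contact made in a few cells and a weak contact made in all of them cannot be told apart.

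The strength of a pair is its CHiCAGO score. It grows, on a natural log scale and with weights, as a contact exceeds the number of ligations that distance and bait would give by chance in that library. The deposited lists hold scores of 5 or more, and a pair absent from a list was given 0. The libraries listed between 113670 and 186248 same-chromosome pairs, with a median of 148502. The knockout libraries listed the fewest, 113670 and 120854, against 134063 or more in every other library. Scores printed per library below were not adjusted for this. Pairs between chromosomes made up 46.5% of the list in Md replicate 1 and 62.7% in the second E12.5 pinna replicate, whose files are named as merged, and 2.64% to 5.61% in the remaining 12. The tests of bait totals that passed for genes named below are also given without them, and values are given per library, so that these 2 can be set aside.

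The promoters of these genes ranged from among the most connected to among the least connected of the 22171 baits, whose median was 4.43 listed same-chromosome fragments per library. The *Neurog2* bait had 31.1 ± 7.37 listed fragments (mean ± SD, n = 14 libraries), which put it at percentile 96.4 of all baits by number and at percentile 99.3 by summed score. *Isl1* followed with 20.9 ± 5.61, at percentile 91.7. *Ret* (8.86 ± 1.88), *Foxd3* (8.29 ± 2.89) and *Pou4f1* (5.64 ± 2.24) were above the median of baits, and the first 2 of these differed by less than their spread over libraries. *Neurog1* had 3.93 ± 3.47. *Sox10* and *Mitf*, the glial and pigment regulators, had 1.71 ± 1.204 and 1.21 ± 0.893 fragments, at percentiles 19.1 and 11.3, and were without any listed fragment in 2 and 3 libraries. *Twist1*, *Prrx1* and *Prrx2*, taken for comparison as mesenchymal crest regulators, had 21.8 ± 5.61, 22.4 ± 7.84 and 21.2 ± 3.66. *Twist2*, the fourth of them, had 14.9 ± 16.3, with 1 to 5 fragments in the *Hox*-negative libraries and 34 to 45 in pinna. On average over the libraries *Neurog2* thus had the most contacts of these mesenchymal and neural genes and *Isl1* about as many as *Twist1*, *Prrx1* and *Prrx2*, while *Sox10* and *Mitf* had the fewest.

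**Figure D1:**
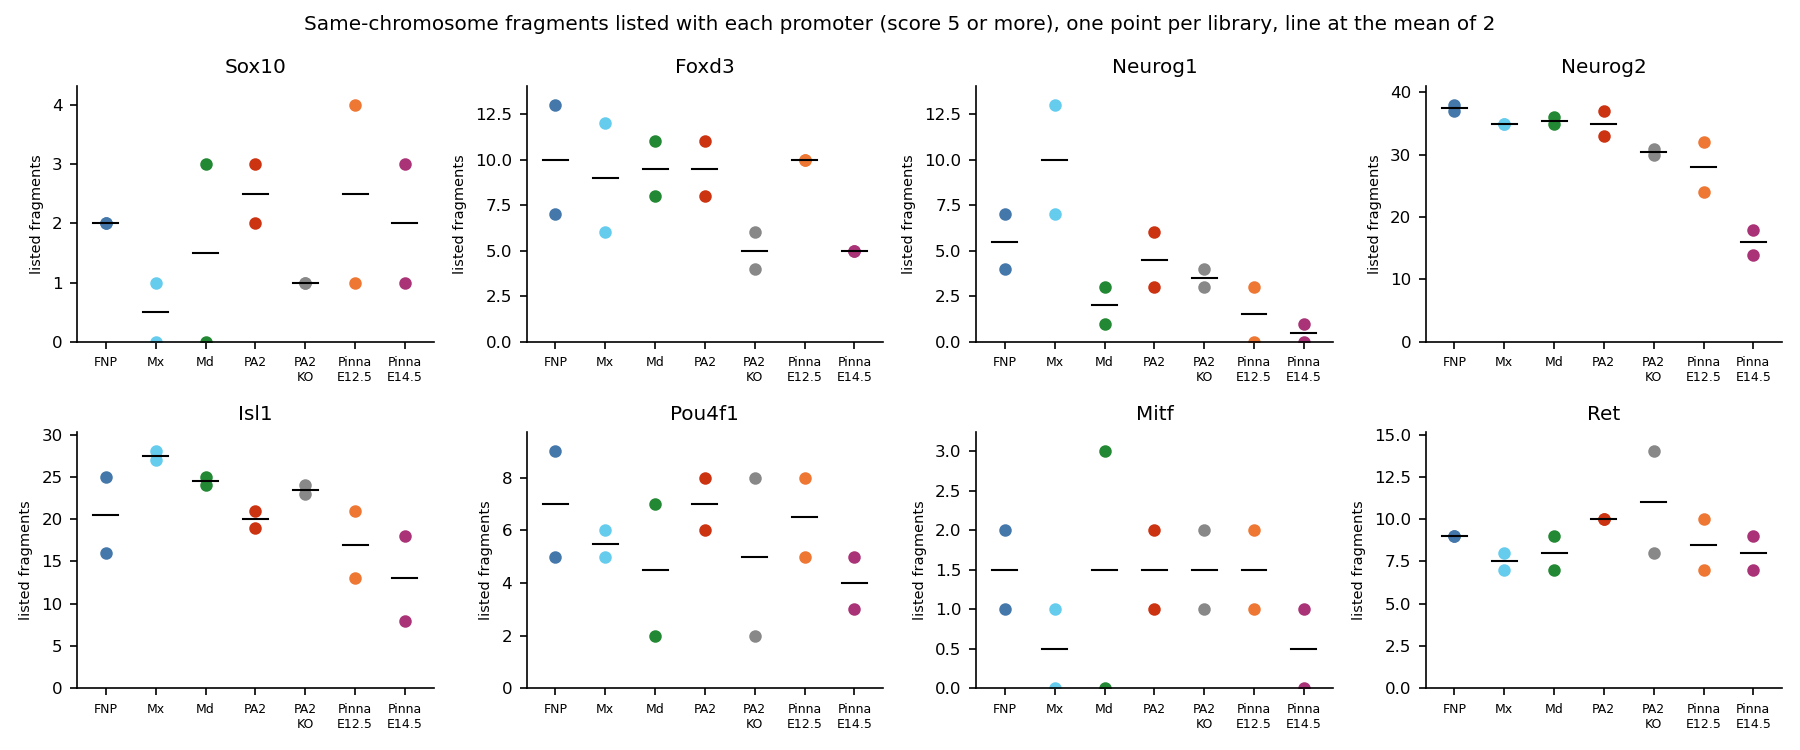
Number of same-chromosome HindIII fragments listed at a score of 5 or more with each promoter (y axis, starting at 0 and scaled per gene) in the 7 conditions (x axis, KO for *Hoxa2* knockout), with a point for each library and a line at the mean of 2. *Neurog2* sits at 33 to 38 in the wild-type E10.5 libraries and at 14 and 18 in E14.5 pinna, while *Sox10* and *Mitf* stay at 4 or fewer everywhere.

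How often contacts recurred between libraries differed among the genes. Of their 287 same-chromosome pairs 11 (3.83%) were listed in all 14 libraries, against 1.85% of the 837141 pairs of all baits, and 131 (45.6%) were listed in a single library, against 63.4%. The single-library share was 26.3% for *Neurog2* and 33.8% for *Isl1*, which hold 125 of the pairs, 50% to 52.4% for *Ret*, *Foxd3* and *Neurog1*, and 63.2%, 64.3% and 81.8% for *Pou4f1*, *Sox10* and *Mitf*, near or above that of all baits. The difference from all baits was not tested. Pairs within 2 Mb made up 77% against 67.2%, and pairs beyond 10 Mb 20.2% against 19.7%. Both fragments held a start site in 21.3% against 21.1%. The 11 constant contacts belonged to *Neurog2* (5), *Isl1* (4) and *Ret* (2). Of all 287 contacted fragments, 128 overlapped no annotated gene, 85 overlapped an exon of a protein-coding gene, 41 lay in introns of coding genes and 33 touched noncoding genes only.

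To ask which promoters changed their total contact between conditions, the summed same-chromosome score of every bait was compared on a log2 scale with limma, each library centred on its median bait and p-values adjusted over all baits by Benjamini-Hochberg. Across the 7 conditions *Neurog2* was the 1 of 8 genes that passed an adjusted p of 0.05, where 3.76% of 21174 baits passed. Between pinna and E10.5 PA2 it was again *Neurog2*, which fell, where 1.88% of baits passed, 0.656% higher and 1.22% lower in pinna. None of the 8 passed between *Hoxa2*-expressing and *Hox*-negative cells, where 0.254% of 21219 baits passed (0.16% higher and 0.0943% lower), or between knockout and wild-type PA2, where 0.85% passed (0.0472% higher and 0.803% lower). At an unadjusted p under 0.05, *Isl1*, *Neurog1* and *Neurog2* were lower in *Hoxa2*-expressing cells, and no member had such a p in the knockout. An exact permutation test of the same totals (two-sided, 6 against 6 libraries) shuffled libraries without regard to condition. This permutation test gave p = 0.149 for *Neurog1*, 0.147 for *Neurog2* and 0.039 for *Isl1*, all unadjusted. Between pinna and PA2 the same 3 genes had such a p and were lower in pinna. The 8 genes thus held 3, none and 3 such baits in the 3 contrasts, where 13.7%, 11.6% and 14.7% of all baits had one. The *Hox*-negative libraries were all E10.5 and 4 of the 6 *Hoxa2*-expressing libraries were later pinna, so in that contrast *Hoxa2* class and stage are largely confounded. Among the E10.5 libraries alone, PA2 minus *Hox*-negative was 0.40 (SE 0.23, limma, adjusted p = 0.765) for *Neurog2*, 0.25 (SE 0.75, adjusted p = 0.967) for *Neurog1* and −0.07 (SE 0.26, adjusted p = 0.976) for *Isl1*, so the lower values came from the pinna libraries. In a test of single pairs between *Hoxa2*-expressing and *Hox*-negative cells, 143 pairs of these genes were tested and none passed, where 0.0234% of 286702 pairs passed (0.00628% higher and 0.0171% lower). There, 22 pairs (15.4%) had an unadjusted p under 0.05, against 6.49% of all pairs, and the lowest adjusted p was 0.404. Of the 22 pairs 13 belonged to *Neurog2*, many of them with neighbouring fragments, and 5 to *Isl1*, so the share was not spread over the 8 genes. With the E10.5 libraries alone 1 of 124 tested pairs passed, where 1.62% of 215985 pairs did. A pair listed in both PA2 libraries and in no *Hox*-negative one enters this test only through PA2, and the 1 that passed was such a pair. Its call (limma, adjusted p = 0.019) thus follows largely from how pairs were selected. The test cannot decide whether this contact differs, and the pair did not pass with the pinna libraries included. This pair joined *Foxd3* to a fragment 178 kb downstream with the start sites of *Efcab7* and *Itgb3bp*. It was listed at 6.50 and 5.94 in PA2 and in none of the *Hox*-negative libraries. It was also listed in 1 knockout and 1 E12.5 pinna library at 5.08 and 5.45.

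The *Neurog2* promoter serves a bHLH activator of neurogenesis. Its sequence is shown because its total was the 1 that changed between conditions. It was searched on both strands for 4 motifs, namely CAGATG, an E-box of neurogenin-type factors, TAATCC, the motif of PITX and OTX homeodomains, ACAAAG, a SOX motif, and CACGTG, an E-box that MITF binds, and matches are in capitals. These occurred in 17.2%, 7.06%, 18.7% and 7.15% of 32841 RefSeq promoters of 300 bases and in 21.6%, 11.5%, 26.4% and 2.83% of 139951 windows of 300 bases on chromosomes 3, 6 and 13. A match to such letters is a description of the sequence and not a binding site.
*Neurog2* promoter, chr3:127632886-127633185, plus strand (250 bases before to 50 after the start, RefSeq, GRCm38, no match): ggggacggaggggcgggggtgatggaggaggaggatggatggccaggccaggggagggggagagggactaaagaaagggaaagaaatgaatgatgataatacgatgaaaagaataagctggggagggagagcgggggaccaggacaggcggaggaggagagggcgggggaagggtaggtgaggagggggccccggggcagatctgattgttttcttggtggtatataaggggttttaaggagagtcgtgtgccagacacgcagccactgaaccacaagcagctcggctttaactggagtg

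Summed over all same-chromosome fragments, the *Neurog2* score was 532 and 589 in the 2 FNP libraries, 562 and 603 in Mx, 569 and 651 in Md and 679 and 669 in PA2. It was 421 and 427 in knockout PA2, 356 and 446 in E12.5 pinna, and 99.97 and 178 in E14.5 pinna. The 4 E10.5 wild-type conditions overlapped in part, and both E14.5 libraries lay below every other library. The difference between pinna and E10.5 PA2 was −1.77 (SE 0.26) on the log2 scale (limma, adjusted p = 0.00169), and the largest difference between condition means was 2.50 (moderated F test, adjusted p = 0.000887). When fragments were counted instead of scores summed, the direction held but the adjusted p-values were 0.0664 and 0.0787. Leaving out any 1 library kept both calls, with adjusted p-values up to 0.0362 and 0.0257, and without the 2 merged libraries they were 0.001603 and 0.0003301. *Hoxa2*-expressing minus *Hox*-negative libraries differed by −0.78 (SE 0.36, adjusted p = 0.35), which turned to 0.40 among the E10.5 libraries, and knockout minus wild-type PA2 by −0.45 (SE 0.30, adjusted p = 0.617).

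Among the contacts nearest the gene were 2 blocks. A block joins fragments listed in at least 3 libraries across gaps of up to 50 kb. Its strength is the mean score over all HindIII fragments it spans, listed or not. The first block spanned 25 fragments 97.5 to 204 kb downstream (chr3:127730893-127837763, GRCm38), of which 8 were listed in any library. It held start sites of the coding genes *Alpk1*, *Ap1ar* and *Tifa*. Its strength was 1.99 and 2.09 in FNP, 1.92 and 1.85 in Mx, 1.67 and 1.54 in Md and 2.13 and 1.83 in PA2. It was 0.86 and 1.34 in knockout PA2, 1.32 and 1.02 in E12.5 pinna and 0.505 and 1.06 in E14.5 pinna, so the 8 wild-type E10.5 libraries lay above the other 6. Its strongest fragment, 156 kb away with the start site of *Tifa*, a signalling adaptor gene, was listed in 13 libraries with a mean score of 8.80. The second block, of 24 fragments 259 to 323 kb downstream with 7 of them listed in any library, held the start site of *Fam241a*. It did not follow this order. Its strengths at E14.5, 1.17 and 1.10, were inside the range of 0.354 to 1.90 over all libraries, and the 2 lowest values, 0.498 and 0.354, were those of the knockout. The knockout libraries also listed the fewest same-chromosome pairs of all, and block strengths were not adjusted for that. Together the 2 blocks held 7.93% to 40.7% of the *Neurog2* total per library, with a median of 13%, so most of that total lay elsewhere. The blocks were set after the values were seen and were not tested. Far from the gene, a fragment 26.7 Mb downstream with the start site of *Lhx8*, a LIM homeobox gene of forebrain and tooth mesenchyme, was listed in 4 libraries, 1 of FNP, 1 of Md and both of wild-type PA2, at 7.55 to 7.87.

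*Neurog1*, the paralogue that starts sensory neurons of the trigeminal ganglion, had its strongest contacts in a single block. This block of 8 fragments 398 to 444 kb downstream (chr13:55806858-55853402) held the start site of *Pitx1*, a homeobox gene of the mandibular arch and hindlimb, and start sites of Gm28760 and Gm47071, and all 8 fragments were listed in some library. The strongest fragment, 411 kb away and over a noncoding gene only, was listed in 9 of 14 libraries with a mean score of 4.42. The fragment with the *Pitx1* promoter, 419 kb away, was listed in 6. The middle of the strongest fragment is shown, with 2 matches to the E-box CAGATG or its complement CATCTG in capitals.
*Neurog1* contact at *Pitx1*, chr13:55839847-55840146, plus strand: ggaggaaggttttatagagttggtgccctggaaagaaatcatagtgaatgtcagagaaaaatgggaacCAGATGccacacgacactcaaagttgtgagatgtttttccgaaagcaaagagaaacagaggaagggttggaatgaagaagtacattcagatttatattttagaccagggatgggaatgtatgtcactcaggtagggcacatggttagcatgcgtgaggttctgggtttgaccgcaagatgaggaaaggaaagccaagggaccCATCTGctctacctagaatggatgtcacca
The strength of this block was 4.97 and 2.21 in FNP, 6.57 and 3.34 in Mx, 4.49 and 3.10 in PA2 and 2.29 and 2.59 in knockout PA2. In Md it was 0.724 and 0.775, lower than in every other E10.5 library. In E12.5 pinna it was 0.861 and 0, and both E14.5 libraries had 0. The *Pitx1* bait had a summed score of 223 and 245 with all other fragments in Md, against 36.1 to 112 in the remaining libraries, so the 2 Md libraries were the highest for the *Pitx1* total and the lowest at E10.5 for the strength of the block with *Neurog1*. The total of *Neurog1* differed by −3.37 (SE 1.16, limma, adjusted p = 0.16) between pinna and PA2 and did not pass the test. Leaving out E12.5 pinna replicate 1, the pinna library with the most *Neurog1* fragments, gave −4.63. Leaving out E12.5 pinna replicate 2 gave −2.10, as did leaving out both merged libraries. The summed *Neurog1* score was 0 in E12.5 pinna replicate 2 and E14.5 pinna replicate 2, so the difference of −3.37 rests partly on the lowest value of the scale.

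**Figure D2:**
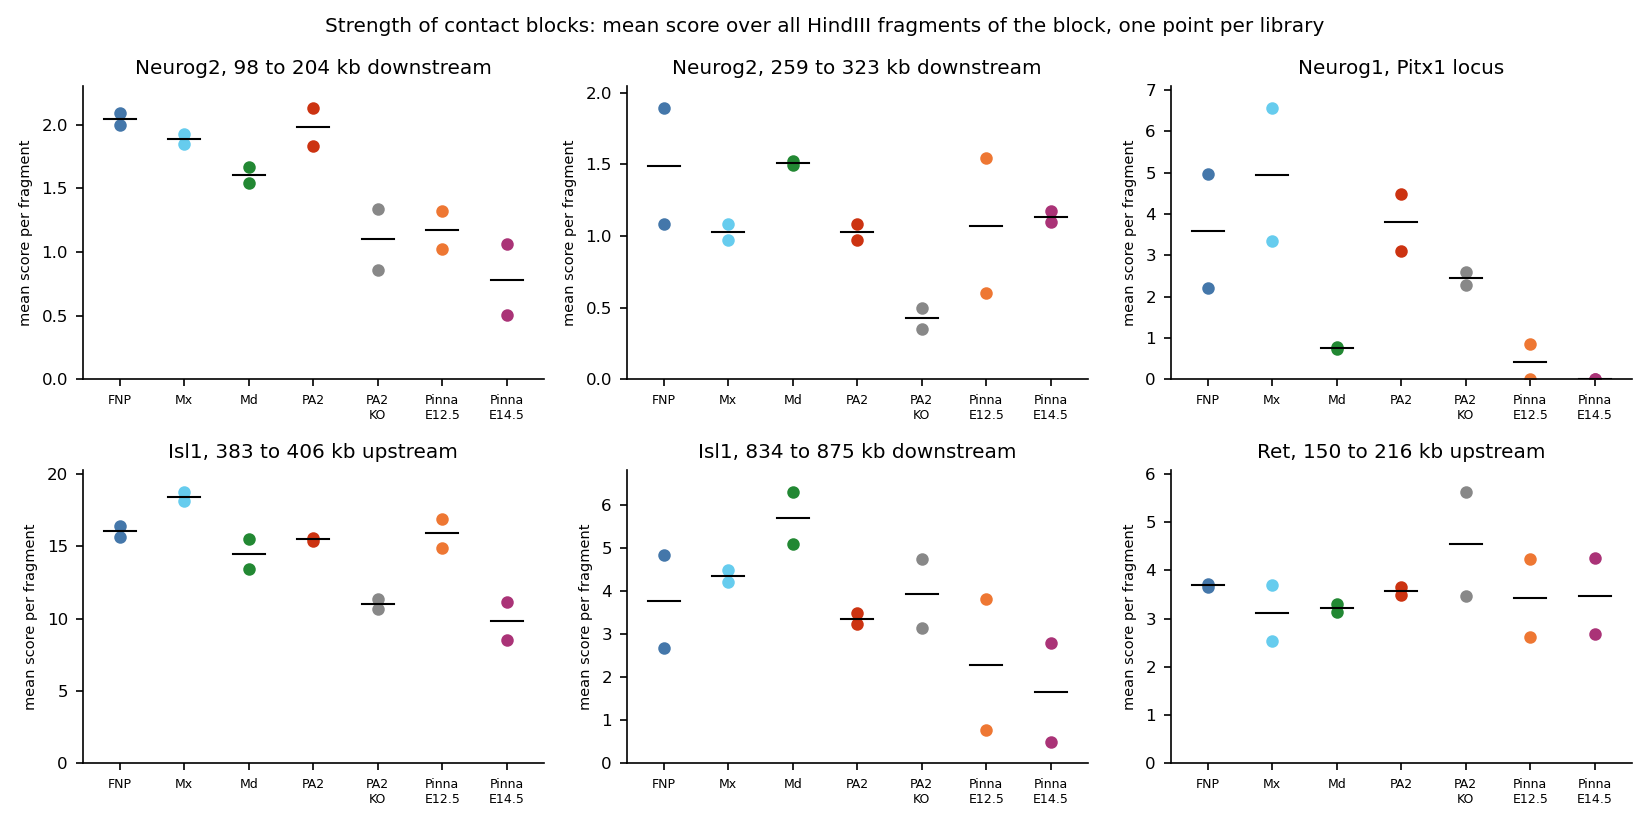
Strength of 6 contact blocks (y axis, mean CHiCAGO score over all HindIII fragments of the block, starting at 0 and scaled per panel) in the 7 conditions, with a point for each library and a line at the mean of 2. The *Neurog1* block at *Pitx1* has strengths of 4.49 and 3.10 in PA2 and 0 in both E14.5 pinna libraries, whereas the *Ret* block stays between 2.55 and 5.63.

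*Isl1*, a LIM homeobox gene of sensory and motor neurons, is flanked by gene deserts, and 53 of its 68 contacted fragments overlapped no annotated gene. Of these 68 fragments 32 lay in 4 blocks. The strongest block, 383 to 406 kb upstream of the promoter (chr13:116693231-116716478), had 6 fragments without any gene, and 4 of them were listed in all 14 libraries. Its strongest fragment, 397 kb away, scored 13.6 to 30.2 with a mean of 23.4. The other 3 blocks lay downstream at 624 to 643, 834 to 875 and 1050 to 1091 kb and held no gene either. The promoter and the middle of the strongest upstream fragment are shown, with matches to the motifs named above in capitals.
*Isl1* promoter, chr13:116309639-116309938, minus strand (RefSeq, 1 match to TAATCC): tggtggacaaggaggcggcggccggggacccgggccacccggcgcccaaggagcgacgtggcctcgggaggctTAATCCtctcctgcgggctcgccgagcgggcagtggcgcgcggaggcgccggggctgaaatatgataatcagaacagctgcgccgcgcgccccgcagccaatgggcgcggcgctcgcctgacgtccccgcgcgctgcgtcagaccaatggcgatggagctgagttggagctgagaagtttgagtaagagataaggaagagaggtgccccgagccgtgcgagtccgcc
*Isl1* contact upstream, chr13:116707470-116707769, plus strand (1 match to CATCTG): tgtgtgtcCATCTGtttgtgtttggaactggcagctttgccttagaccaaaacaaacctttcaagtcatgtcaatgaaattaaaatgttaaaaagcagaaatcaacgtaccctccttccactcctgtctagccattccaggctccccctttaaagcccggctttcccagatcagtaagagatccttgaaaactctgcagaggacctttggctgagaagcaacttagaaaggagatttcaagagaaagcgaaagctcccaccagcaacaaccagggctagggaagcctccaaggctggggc

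The upstream *Isl1* block was present in every condition. Its strength was 13.5 to 18.8 in the 8 wild-type E10.5 libraries and 16.9 and 14.9 in E12.5 pinna, and the lowest 4 values were 10.7 and 11.4 in knockout PA2 and 8.50 and 11.1 in E14.5 pinna. The downstream blocks varied more relative to their means. The block at 834 to 875 kb had strengths of 6.32 and 5.11 in Md, 4.23 and 4.51 in Mx and 0.507 and 2.81 at E14.5. The block at 624 to 643 kb was highest in Mx, at 5.59 and 5.33, and was not listed at all in E14.5 replicate 1, where the other replicate had 2.86. For all contacts together, summed scores were lowest at E14.5 (69.9 and 149) and highest in Mx (283 and 299), and the test over 7 conditions gave an adjusted p of 0.0727. The difference between pinna and PA2 was −0.80 (SE 0.28, adjusted p = 0.169). Between *Hoxa2*-expressing and *Hox*-negative libraries it was −0.60 (limma, adjusted p = 0.298), and an exact permutation test over the 12 libraries (two-sided, 6 against 6) gave p = 0.039, unadjusted. The adjusted and the unadjusted p thus fell on different sides of 0.05, and the 2 sets of libraries overlapped.

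**Figure D3:**
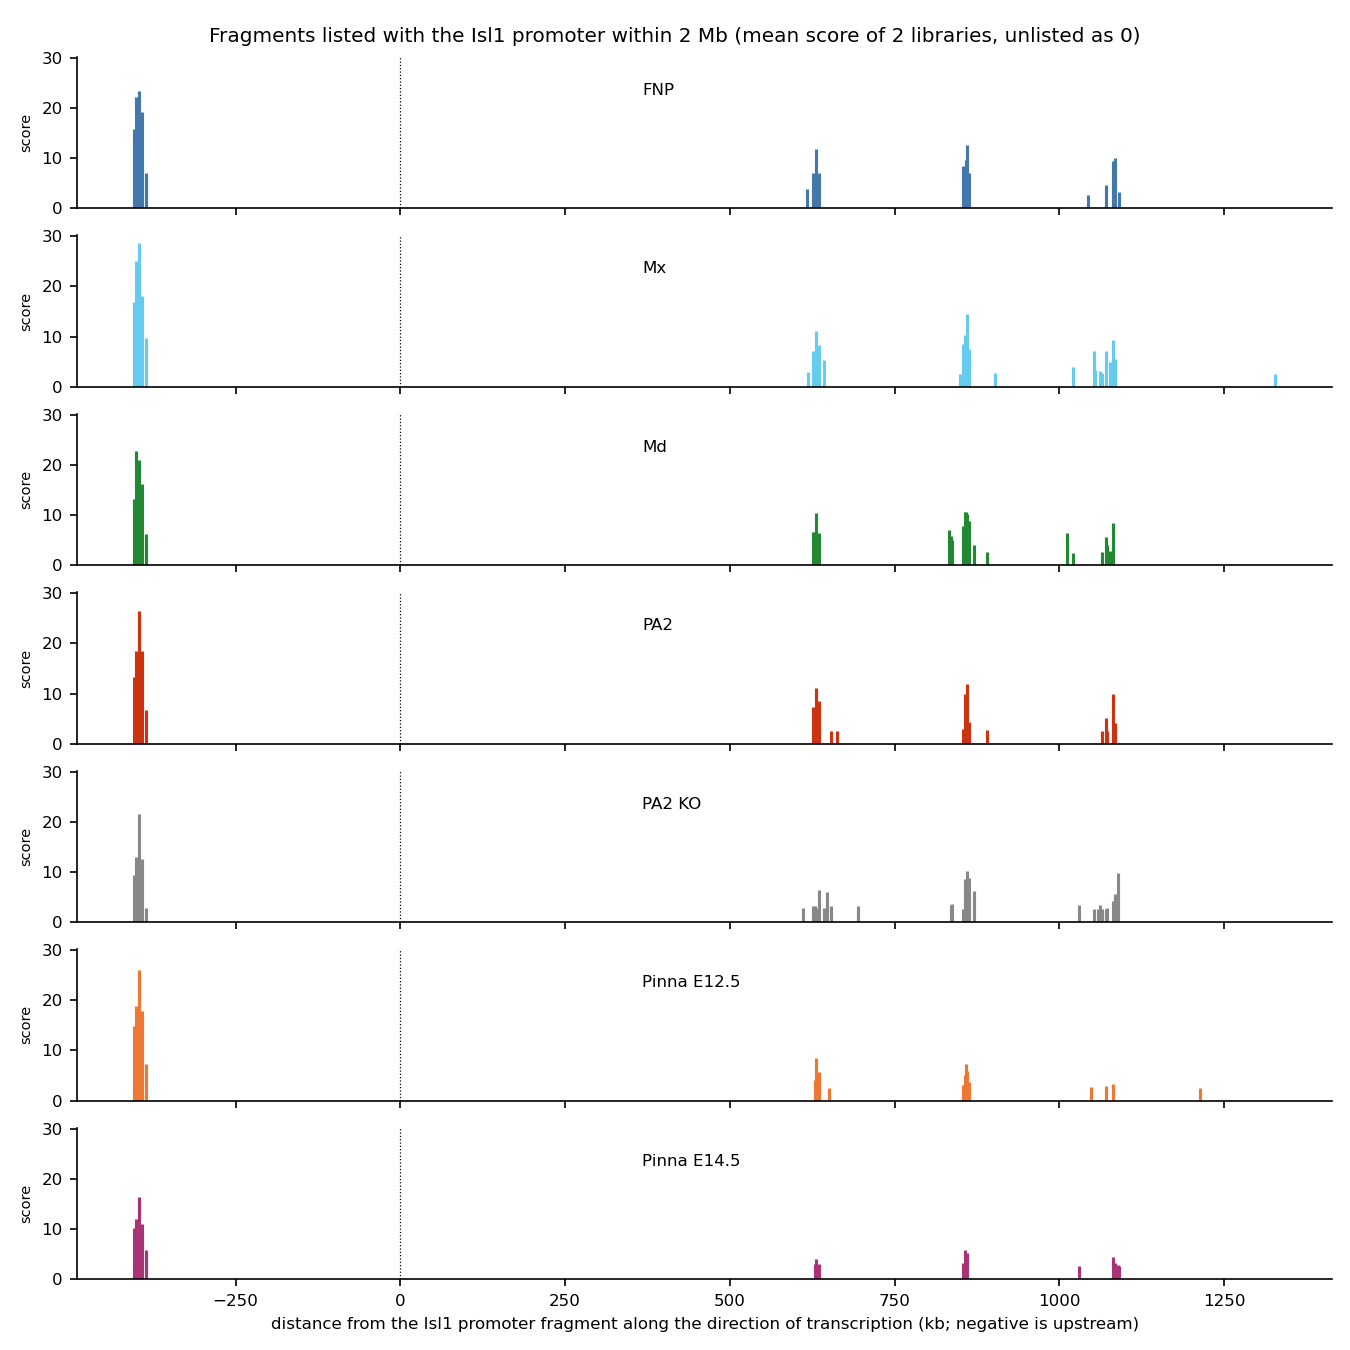
CHiCAGO score (y axis, mean of 2 libraries, unlisted as 0) of each fragment listed with the *Isl1* promoter within 2 Mb, by distance in kb along the direction of transcription (x axis, negative upstream), with a panel for each condition. The cluster 383 to 406 kb upstream is present in all 7 panels, and the clusters 624 to 875 kb downstream are lowest in the E14.5 pinna panel.

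*Pou4f1*, a POU homeobox gene of sensory neurons, had its strongest partner very far away. A fragment 18.0 Mb upstream (chr14:122473342-122477678) with start sites of *Zic2*, a zinc finger gene of the dorsal neural tube, and 2610035F20Rik was listed in 8 libraries with a mean score of 9.03. Its scores were 24.6 and 6.77 in FNP, 7.86 and 15.9 in Mx, 0 and 28.4 in Md, 25.2 and 7.22 in PA2, and 10.4 and 0 in E12.5 pinna. It was not listed in the knockout or the E14.5 libraries. Of the 8 wild-type E10.5 libraries 7 listed it, the exception being the merged Md replicate 1, and replicates differed by up to 28.4. The *Zic5* promoter, beside *Zic2*, was listed once. Nearer the gene, 3 adjacent fragments 341 to 347 kb upstream were listed in 6, 8 and 8 libraries, over a noncoding gene. No test of the *Pou4f1* total passed, with differences of 0.08 (SE 0.45, adjusted p = 0.96) for *Hoxa2*-expressing against *Hox*-negative, −0.92 (SE 0.75, adjusted p = 0.702) for the knockout and −1.09 (SE 0.65, adjusted p = 0.464) for pinna. With pairs within 2 Mb only, the differences for the knockout and pinna turned to 0.93 and 0.86, which did not pass either.

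*Ret*, the receptor tyrosine kinase for GDNF family ligands, had the most even total of the 8 genes. Its largest difference between condition means was 1.17 on the log2 scale. All 24 of its same-chromosome fragments lay within 2 Mb, and a single block 150 to 216 kb upstream (chr6:118346203-118411403), reaching into *Bms1*, held at least 78.7% of its score in each library. Block strengths ran from 2.55 to 5.63 with a mean of 3.58 ± 0.798 (SD, n = 14 libraries). The strongest fragment, 178 kb upstream and without a gene, was listed in all 14 libraries. It scored 24.3 and 18.0 in the 2 knockout libraries, 6.96 and 11.0 in wild-type PA2 and 6.30 to 10.9 in the other 10, so the knockout libraries lay above all others for this fragment. The fragment was picked for its mean score and this difference, which came to notice afterwards, was not tested on its own. The next fragment, 183 kb upstream, scored 12.2 and 8.20 in the knockout against 9.04 and 8.50 in wild-type PA2. The *Ret* total differed in the knockout by 0.47 (SE 0.48, limma, adjusted p = 0.775).

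*Foxd3*, a forkhead repressor of early crest, had no contact listed in more than 8 libraries. A weak block 298.3 to 459.5 kb upstream, with strengths of 0.236 to 0.956, held 23 of its 54 same-chromosome fragments. The 3 strongest *Foxd3* fragments lay in this block, 299, 420 and 339 kb upstream, the second over an exon of *Atg4c*. Their mean scores were 3.84, 3.72 and 3.67. Of the 54 same-chromosome fragments of *Foxd3* 44.4% were more than 10 Mb away, against 20.2% for the 8 genes together. These included fragments with the start sites of the cell cycle inhibitor genes *Cdkn2a*, 10.4 Mb upstream and listed in 5 libraries, and *Cdkn2c*, 10.0 Mb downstream and listed in 5. They also included *Foxe1*, another forkhead gene 53.3 Mb away, listed in 4 libraries, and *Tal1*, a blood bHLH gene 15.4 Mb away, listed in 2. No test of its total passed, with differences of −0.33 (SE 0.35, adjusted p = 0.714), −0.76 (SE 0.53, adjusted p = 0.634) and −0.81 (SE 0.46, adjusted p = 0.443) in the same order as for *Pou4f1*.

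*Sox10* and *Mitf* had few and weak contacts. The highest mean for *Sox10* was 2.49, for a fragment 61.8 kb downstream with the start site of *Micall1*, which was listed in 6 libraries at 5.11 to 6.83. The next were the fragment with *Galr3* and *Gcat*, 126 kb away and listed in 3, and the one with Gm49593, 320 kb away and listed in 2. *Mitf* had 11 same-chromosome fragments, of which 9 were listed once. The other 2 lay inside the gene 185 and 187 kb downstream, were listed in 5 and 3 libraries, and the first of them directly followed the fragment that holds the most downstream *Mitf* start sites. No score of *Sox10* or *Mitf* on the same chromosome reached 10. Of the enhancers in the RefSeq annotation, 9 lay outside the *Sox10* bait within 2 Mb, 7 of them within 60 kb, and 3 more overlapped the bait itself. Most of the near ones are described as active in ganglia, glia or melanoblasts, and none of the 9 lay in a fragment listed with *Sox10*. Over all baits 3.97% of HindIII fragments within 60 kb were listed in at least 1 library, so an unlisted near element was the usual state.

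Contacts listed in both libraries of a single condition and in no other library numbered 7 of the 287 pairs (2.44%), against 1.99% of the pairs of all baits. *Isl1* had 2 such pairs in Md, at 833 and 1012 kb, 1 in the knockout and 1 in E12.5 pinna. The last was 94.3 Mb away and scored 5.43 and 24.6, the higher score in the merged library. *Foxd3* had 1 in the knockout, 303 kb upstream, *Pou4f1* had 1 in FNP over an exon of *Slain1*, and *Sox10* had 1 in E14.5 pinna, 235 kb away with the start sites of *Lgals1* and *Nol12*. The remaining 4 genes had none. Apart from the E12.5 pair, no such pair scored above 8.34.

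Other genes of the same fates were counted in the same fits. Of 19 neuronal genes 17 had a tested bait, with 19 such baits in all (*Th* and *Dbh* were listed in too few libraries), and 4 baits of 3 genes passed across the 7 conditions, next to a background of 3.76%. These were *Insm1*, a zinc finger gene of new neurons, *Gata3* with 2 of its 3 baits, and *Gfra1*, a co-receptor of RET. *Insm1* also fell between PA2 and pinna, with a log2 difference of −3.20 (SE 0.61, adjusted p = 0.00931). None of 12 glial baits and none of 9 pigment baits passed in any of the 4 tests, and no neuronal bait passed in the knockout or between *Hoxa2*-expressing and *Hox*-negative cells. The median difference between pinna and PA2 was −0.32 for the neuronal, 0.03 for the glial and −0.18 for the pigment baits, −0.01 for the 4 mesenchymal baits, −0.95 for the 8 genes described here and −0.09 over all baits.

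*Insm1* had summed scores of 79.8 to 172 in the 8 wild-type E10.5 libraries, 39.5 and 56.2 in the knockout, 45.8 and 74.3 at E12.5, then 0 and 10.8 in the E14.5 libraries. For this gene, as for *Neurog2*, the pinna libraries did not overlap those of wild-type E10.5. Both *Gata3* baits that passed were highest in FNP, 1 with 246 and 368 against 48.4 to 197 elsewhere and the other with 264 and 297 against 54.9 to 254. The third *Gata3* bait did not pass (adjusted p = 0.383). *Gfra1* had 374 and 325 at E14.5, close to the 351 and 255 in PA2, and was lowest in Md at 92.5 and 141. *Twist2*, a mesenchymal bHLH gene, rose from PA2 to pinna by 2.25 (SE 0.44, adjusted p = 0.0111), from 65.3 and 40.1 to between 247 and 343. It was the 1 of 4 mesenchymal genes that passed, and *Twist1*, *Prrx1* and *Prrx2* had differences of −0.02, −0.01 and −0.43 there. *Twist2* was also higher in *Hoxa2*-expressing than in *Hox*-negative cells by 3.40 (SE 0.46, adjusted p = 0.00333), and by 1.90 (SE 0.64, adjusted p = 0.491) among the E10.5 libraries alone. The low E14.5 scores of *Neurog2* and *Insm1* were thus not shared by every promoter. Without the 2 merged libraries *Insm1*, both *Gata3* baits and *Twist2* still passed over the 7 conditions (limma, adjusted p = 0.00997, 0.00449, 0.012 and 0.000581), whereas *Gfra1* did not (adjusted p = 0.0948). The differences between pinna and PA2 were then −3.18 (adjusted p = 0.0426) for *Insm1* and 2.32 (adjusted p = 0.0176) for *Twist2*, which also passed between *Hoxa2*-expressing and *Hox*-negative cells (3.24, adjusted p = 0.0246). Without these libraries *Ntrk3*, a neurotrophin receptor gene, and *Prrx1* also passed over the 7 conditions (adjusted p = 0.0315 and 0.0456), and the *Gata3* bait with 246 and 368 in FNP passed between *Hoxa2*-expressing and *Hox*-negative cells, at −1.64 (adjusted p = 0.023).

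**Figure D4:**
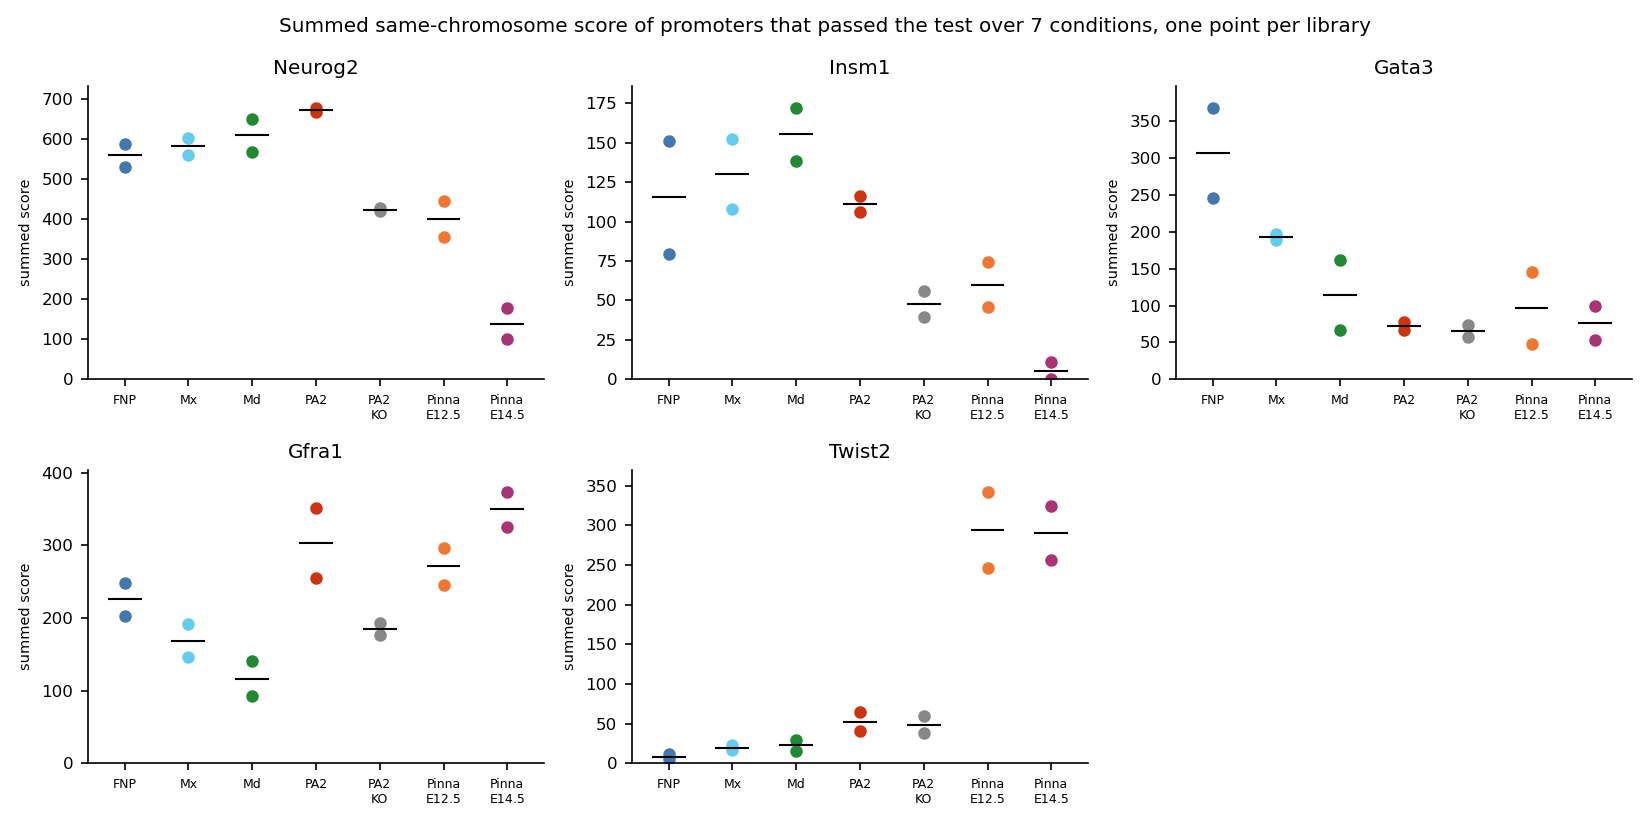
Summed same-chromosome CHiCAGO score (y axis, starting at 0 and scaled per gene) of promoters that passed the test over 7 conditions, with a point for each library and a line at the mean of 2. *Neurog2* and *Insm1* are lowest in E14.5 pinna, *Gata3* (1 of the 2 baits that passed, the one with 246 and 368 in FNP) is highest in FNP, *Gfra1* is lowest in Md, and *Twist2* is highest in pinna.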

How the data were processed

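PCHi-C libraries of 14 samples, 2 for each of 7 conditions by GEO's labels, were used as deposited. The authors mapped reads to GRCm38/mm10 with HiCUP and called interactions with CHiCAGO. The deposited score of each pair of HindIII fragments is relative to a background within its library, and no read counts were at hand, so the depth is unknown and no counting interval can be given. Baits were matched to GENCODE vM21 start sites, and all 524028 listed fragments on the standard chromosomes equalled a fragment of the reference digest.

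Bait totals, log2(summed score + 1), were fitted with limma 3.58.1 (R 4.3.3, lmFit and eBayes with trend) over baits listed in at least 7 of 14 (or 6 of 12) libraries, and single pairs listed in at least 2 libraries on asinh of the score. *Hoxa2*-expressing and *Hox*-negative cells were compared over 12 wild-type libraries, and the other contrasts over 14 libraries with 7 condition means. The steps were tested on simulated data. Named contacts were the 3 pairs per gene with the highest mean score at 20 kb or more, pairs in all 14 libraries, pairs past the pair test and pairs particular to a condition, except for results not reported. Other contacts named, such as the nearer *Neurog2* blocks, *Lhx8*, *Zic5*, *Cdkn2a*, *Cdkn2c*, *Foxe1* and *Tal1*, were picked with their values already in view. The genes and lists were chosen with earlier results of these data known. Blocks (3 or more fragments listed in at least 3 libraries, gaps up to 50 kb, within 2 Mb) were set after seeing the values. Alternatives covered the score minimum, cap, distance, pseudocount, centring, filter, bait column, replicate block and each library, and, chosen after seeing the data, the merged libraries and the E10.5 stage alone. Results on some loci and genes are not reported here.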

Additional observations from a re-analysis of the deposited data

Results flagged for a closer look

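Libraries that stood apart from the other 5 of their class were looked for by Dixon's ratio of gap to range in 54 groups of 6 libraries, of which chance alone would flag about 5%, and 4 were found. The FNP replicate 1 library listed 16 *Isl1* fragments, against 24 to 28 in the other *Hox*-negative libraries. Md replicate 1, one of the merged libraries, had the lowest centred log2 total of *Neurog2* among *Hox*-negative libraries, 3.80 against 4.18 to 4.24, and of *Pou4f1*, −1.80 against 0.29 to 0.98. E14.5 pinna replicate 2 listed no *Mitf* fragment, which gave a centred log2 total of −5.20 against −2.68 to −1.20 in the other *Hoxa2*-expressing libraries.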

How the results depend on the processing

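*Neurog2* kept its direction in pinna against PA2 and its call there and over the 7 conditions under every alternative except the number of listed fragments (−0.94 with adjusted p = 0.0664, and a largest difference of 1.22 with adjusted p = 0.0787). It also passed between *Hoxa2*-expressing and *Hox*-negative cells when the 6 condition means were fitted (limma, adjusted p = 0.0415). *Isl1* passed over the 7 conditions among baits listed in every library (adjusted p = 0.0277) and without either E12.5 pinna replicate (0.0412 and 0.0458), and *Neurog1* with the bait in the first column only (0.0484) and without E12.5 pinna replicate 1 (0.0231). The causes were not tested.

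Counts of called baits moved by more than 1.5 times as follows. For *Hoxa2*-expressing against *Hox*-negative, 54 became 181 with the number of fragments, 178 within 2 Mb, 196 with a pseudocount of 5, 233 among baits listed in every library, 418 with condition means, 16 without the 2 merged libraries and 0 with the E10.5 libraries only (limma, 1498 at an unadjusted p under 0.05). Over 7 conditions, 796 became 422 with scores of 10 or more and 1305 within 2 Mb. For the knockout, 180 became 111 with equal numbers of top-scoring pairs, 342 without centring and 80 among baits listed in every library, and limma on the 4 PA2 libraries alone, with few degrees of freedom, called 0. For pinna, 398 became 177 with scores of 10 or more. For single pairs, 67 became 24 when 4 of 12 libraries were required, 114 on log2(score + 1), 3 with scores capped at 20, 14 without the merged libraries and 3494 with the E10.5 libraries only, where 2 PA2 libraries meet 6 *Hox*-negative ones. Leaving out each library gave 3 (without E14.5 pinna replicate 2) to 285 (without PA2 replicate 2), 464 (without knockout replicate 1) to 1228 (without E12.5 pinna replicate 1), 70 (without PA2 replicate 1) to 243 (without E12.5 pinna replicate 2), 140 (without PA2 replicate 2) to 801 (without E12.5 pinna replicate 1), and 24 (without Md replicate 2) to 132 (without PA2 replicate 2), in that order.

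Uncalled log2 differences changed sign in places. For *Hoxa2*-expressing against *Hox*-negative these were *Pou4f1* at scores of 10 or more (−0.0298) and without the merged libraries (−0.31), *Foxd3* within 2 Mb (0.44), *Neurog2* (0.40), *Neurog1* (0.25) and *Foxd3* (0.20) with the E10.5 libraries only and *Ret* with equal numbers of pairs (−0.0258), and leaving out a library gave −0.33 to 0.29 for *Pou4f1* and −0.0386 to 0.98 for *Mitf*. For the knockout these were *Isl1* at scores of 10 or more (−0.000312) and without centring (−0.088), *Mitf* within 2 Mb (−0.0252), with equal numbers of pairs (−0.26) and without centring (−0.17), and *Pou4f1* within 2 Mb (0.93) and with the first column only (0.10), and leaving out a library gave −0.31 to 0.43 for *Mitf* and −0.46 to 0.067 for *Neurog1*. For pinna these were *Pou4f1* within 2 Mb (0.86) and *Sox10* without the merged libraries (0.00564), and leaving out a library gave −1.27 to 0.00644 for *Sox10*.

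With scores of 10 or more, the mean number of listed fragments per library was 19 for *Neurog2*, 7.07 for *Isl1*, 1.14 for *Ret*, 0.714 for *Foxd3*, 0.643 for *Pou4f1*, 0.143 for *Neurog1* and 0 for *Sox10* and *Mitf*. Within 2 Mb, *Foxd3* had 5.14. Same-numbered libraries were at most weakly related (correlations of deviations −0.01 to 0.22 over 21 pairs of conditions, median 0.06, 4 above 0.1). The labels do not state whether they shared a day or batch. With a replicate block the counts were 47, 984, 223, 510 and 88, in the order used above. Depth per library is unknown, so an unlisted pair is one below a score of 5, not an absent contact, and 2 libraries per condition limit the precision.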

Other observations

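Pairs that joined these promoters to other chromosomes came mostly from the merged libraries. Of 148 such pairs 145 were listed in a single library, and 131 were listed only in Md replicate 1 or E12.5 pinna replicate 2, which had 45 and 86 against 0 to 4 in each other library. The 3 that recurred were 1 of *Foxd3* and 2 of *Isl1*. The *Foxd3* promoter was listed with a fragment of 284 bp on chromosome 6 at 55.3 and 37.1 in the 2 knockout libraries, 11.9 in PA2 replicate 1 and 11.4 in E14.5 pinna replicate 2. The *Isl1* promoter was listed with a fragment on chromosome 3 in 6 libraries, at 27.6 and 26.5 in PA2, 12.2 in FNP replicate 1, 12.4 in Mx replicate 1, 11.2 in knockout replicate 1 and 22.8 in E14.5 pinna replicate 2.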
